A study of Mus musculus with 45 samples.

Results

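The genes described here encode the machinery of oxidative phosphorylation in the mouse distal colon, split by the genome that carries them. Members were the protein-coding genes whose symbols begin with Nduf, Uqcr, Cox4 to Cox8 or Atp5, or are Sdha to Sdhd or Cyc1, together with the mt-Nd, mt-Co, mt-Atp and mt-Cytb genes. The annotation held 108 such genes, 1 of which (a second Atp5o identifier) was not found in the count tables. That left 107 members, 94 nuclear and 13 mitochondrial, among 50600 gene identifiers. The rule used symbols only and no measured value.

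The study asked how compound 13, a code-named blocker of GPR4, which senses protons outside the cell, and an antibody to p40, the subunit shared by interleukins 12 and 23, changed gene expression in the colon of mice lacking Il10. Such mice lack the anti-inflammatory cytokine interleukin 10 and develop colitis. The first cohort held 8 untreated wild-type libraries, 10 Il10 knockout libraries given vehicle, 9 knockout libraries given compound 13 at 30 mg/kg and 7 given 10 mg/kg. The second cohort, labelled day 77, held 5 knockout vehicle libraries and 5 knockout libraries given anti-p40. All groups apart from the wild type carry the Il10 deletion, and the wild-type mice received no vehicle, so genotype and vehicle cannot be told apart in that comparison. The sources used here give no age, strain or sex, and do not say whether each library stands for its own mouse. The p-values therefore speak of variation among these libraries, which may be technical. Libraries held 22682471 to 36279743 counts. Il10 itself had 0 to 4 counts in the wild-type libraries and 0 in every knockout library, a level too low to check the genotype labels. In the colon, 10 of 11 colonocyte markers and all 9 pan-epithelial markers passed the expression filter, and no marker of either list had a median count of 0.

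Oxidative phosphorylation passes electrons from NADH and succinate through complexes I to IV of the inner mitochondrial membrane to oxygen, and complex V uses the resulting proton gradient to make ATP. Complex II is encoded wholly in the nucleus, whereas complexes I, III, IV and V also need subunits made inside the mitochondrion from its own DNA, so both genomes must supply parts of the same enzymes. Colonocytes draw much of their energy from butyrate oxidized in mitochondria, which makes the pathway prominent in this tissue. The nuclear members comprised 36 complex I subunits, 8 complex I assembly factors (Ndufaf genes), 4 genes of complex II, 9 of complex III, 20 of complex IV and 17 of complex V. The mitochondrial members comprised 7 genes of complex I, 1 of complex III, 3 of complex IV and 2 of complex V.

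Nuclear members were compared for short motifs of factors known to act on respiratory genes, in the 250 bases before the RefSeq start in GRCm38.p6. A promoter was found for 74 of the 94 nuclear members. The palindrome of nuclear respiratory factor 1 (GCGC, 2 free bases, GCGC) was present on either strand in 20.3% of them, against 5.09% of 27025 promoters. CCGGAAG, a core of the ETS family factor GABP, was present in 17.6% against 7.05%. TCAAGGTCA, a site of the estrogen-related receptors, was present in 1.35% against 0.366%, and TATAAA in 8.11% against 13.0%. Each search covered both strands, and a match is a description of letters, not of binding. Of the 4 promoters shown, Sdhd, Ndufs5 and Atp5g3 belong to genes called higher in the knockout and lower with anti-p40, and Cox7a1 belongs to the 1 member called higher with anti-p40. They are examples, and the motifs do not mark the called genes. Cox5a, Cox7b, Cox7c, Atp5g1, Atp5o, Ndufa10, Ndufc1, Ndufs8 and Uqcrfs1, called in the same 2 comparisons, had none of the motifs in the 250 bases. Atp5g3 was the 1 member with the receptor site. Each is the 200 bases before the start, 5′ to 3′ on the gene's strand, with the listed motifs in capitals. Sdhd, which anchors complex II in the membrane, lies on the minus strand at chr9:50603850-50604049 and shows the palindrome and the reverse complement of the ETS core. Ndufs5, a complex I subunit, lies on the minus strand at chr4:123718187-123718386 and shows the palindrome. Atp5g3, 1 of the 3 genes for the membrane ring of complex V, lies on the minus strand at chr2:73911327-73911526 and shows the receptor site. Cox7a1, the heart and skeletal muscle form of a complex IV subunit, lies on the plus strand at chr7:30183971-30184170 and shows none of these motifs.
Sdhd: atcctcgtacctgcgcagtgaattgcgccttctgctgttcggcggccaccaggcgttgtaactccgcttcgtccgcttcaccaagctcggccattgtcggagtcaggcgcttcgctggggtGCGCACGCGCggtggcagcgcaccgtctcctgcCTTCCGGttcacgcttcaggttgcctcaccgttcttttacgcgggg
Ndufs5: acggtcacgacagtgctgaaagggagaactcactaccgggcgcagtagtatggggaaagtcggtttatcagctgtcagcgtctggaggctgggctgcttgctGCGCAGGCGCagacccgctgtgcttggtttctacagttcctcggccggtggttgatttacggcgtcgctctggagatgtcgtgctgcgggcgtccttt
Atp5g3: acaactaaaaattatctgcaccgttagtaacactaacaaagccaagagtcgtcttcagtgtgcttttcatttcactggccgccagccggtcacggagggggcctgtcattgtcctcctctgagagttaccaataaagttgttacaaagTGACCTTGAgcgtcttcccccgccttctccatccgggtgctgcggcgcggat
Cox7a1: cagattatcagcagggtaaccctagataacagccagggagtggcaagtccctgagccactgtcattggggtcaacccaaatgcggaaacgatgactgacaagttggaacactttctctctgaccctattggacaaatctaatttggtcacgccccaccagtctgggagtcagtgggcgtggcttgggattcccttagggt

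The nuclear and mitochondrial genomes supplied very different amounts of message. The 94 nuclear members together took 1.53% ± 0.112 (SD, n = 8) of counts in wild type, 1.72% ± 0.165 (n = 10) in knockout vehicle, 1.74% ± 0.134 (n = 9) at 30 mg/kg and 1.61% ± 0.206 (n = 7) at 10 mg/kg. In the day 77 cohort they took 1.95% ± 0.0761 (n = 5) with vehicle and 1.69% ± 0.118 (n = 5) with anti-p40, and those 2 groups did not overlap. The 13 mitochondrial members took 4.84% ± 0.385 in wild type, 4.53% ± 0.476 in knockout vehicle, 4.87% ± 0.911 at 30 mg/kg and 5.28% ± 0.665 at 10 mg/kg. At day 77 they took 4.36% ± 1.01 with vehicle and 4.69% ± 0.756 with anti-p40, with overlapping libraries. The order of the group means therefore differed between the genomes, and neighbours in either order overlapped. mt-Co1, the catalytic core of complex IV, alone made up 42.9% to 48.9% of mitochondrial counts as group means.

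**Figure D1:**
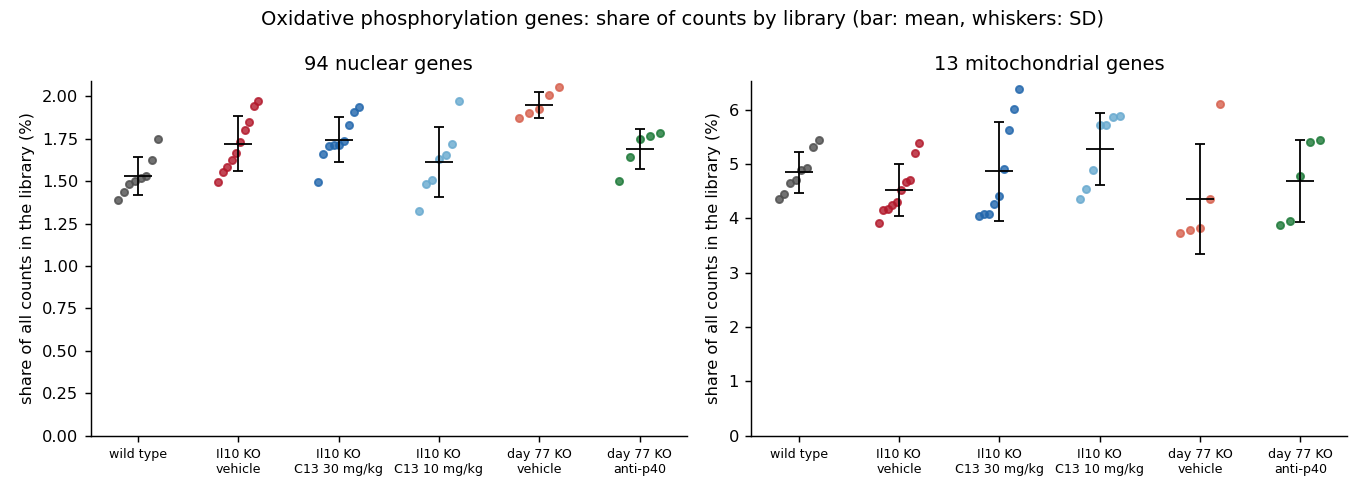
Share of all counts (%) taken by the 94 nuclear (left) and 13 mitochondrial (right) genes in each library of the 6 groups, with points for libraries, bars for means and whiskers for SD. The 5 day 77 vehicle libraries all lie above the 5 anti-p40 libraries in the nuclear panel, and 1 day 77 vehicle library at 6.11% stands apart in the mitochondrial panel.

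Levels per length are given as TPM (transcript abundance scaled for length and depth). In knockout vehicle the highest were mitochondrial, led by mt-Co1 at 20736 TPM ± 2845 (SD, n = 10). mt-Atp8, which overlaps mt-Atp6 by 43 bases, stood at 20373 TPM ± 4017, so its reads could not be fully told from those of its neighbour. mt-Atp8 is also 204 bases long, where mt-Co1 is 1545, so its rank as TPM leans on the scaling for length. The most abundant nuclear member was Atp5b, the catalytic beta subunit of complex V, at 3691 TPM ± 299, followed by Cox6a1 at 2453 TPM ± 308 and Cox8a at 2339 TPM ± 253, which did not differ beyond their spread. Complex II transcripts were far lower, with Sdha at 187 TPM ± 13.9 and Sdhd at 392 TPM ± 28.3. Assembly factors were lower still, Ndufaf6 standing at 8.52 TPM ± 2.74.

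The nuclear genes were broadly higher in the knockout than in wild type. Of the 90 nuclear members that passed the filter, 55 were higher and 0 lower in knockout vehicle (edgeR, Benjamini-Hochberg adjusted p under 0.05), where 25.2% of all 16435 genes tested were higher and 24.1% lower. Their median log2 fold change was 0.30, against -0.01 over all genes, and 85 of 90 lay above 0. Members below the filter were Cox6a2, Cox7b2, Cox8b and Cox8c. The changes were small. The largest increase, of Atp5g1, was a log2 fold change of 0.68, the lowest value, of Ndufa4l2, was -0.68 and was not called, and the knockout and wild-type libraries overlapped in all 90. The counts depended on the scaling: scaling by total counts left 31 higher and 1 lower, and log2(TPM + 1) tested with limma left 21 higher and 3 lower. Over all genes, 16.8% were higher and 34.4% lower under the first, and 14.1% and 38.9% under the second. Those scalings moved the median of all genes to -0.16 and -0.17, and the nuclear median relative to all genes was 0.31 in the first and 0.26 in the second, close to the 0.31 of edgeR.

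Called genes were found in each of the 5 complexes. In complex I, 24 of 36 subunits were higher, led by Ndufb6, an accessory membrane-arm subunit. Its level was 31.4, 36.3 and 47.1 CPM (counts scaled to a common library size by TMM; lowest, median and highest) in wild type and 38.8, 57.0 and 65.7 CPM in knockout vehicle. The groups overlapped, and the log2 fold change was 0.59 ± 0.09 (SE; edgeR adjusted p = 0.000102). Ndufs1, which carries iron-sulfur clusters, rose by 0.42 ± 0.09 (edgeR adjusted p = 0.00163), and Ndufv1, which binds NADH, by 0.27 ± 0.08 (edgeR adjusted p = 0.00737). None of the 8 Ndufaf assembly factors passed, with a median of 0.11. All 4 genes of complex II, which also serves the citric acid cycle, were higher, from 0.25 for the flavoprotein Sdha to 0.44 for the membrane anchor Sdhc.

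In complex III, 6 of 9 were higher, led by Uqcrfs1, the Rieske iron-sulfur protein, and Uqcrq, a small accessory subunit, both at 0.52. Cyc1, the cytochrome c1 heme protein, stood at 194, 225 and 243 CPM in wild type and 211, 283 and 344 CPM in knockout vehicle. Most but not all knockout libraries lay above the wild-type range, with a log2 fold change of 0.34 ± 0.08 (edgeR adjusted p = 0.00167). Uqcrc1, a core subunit, was called at 0.19 ± 0.07 (edgeR adjusted p = 0.0338), but its sign turned to -0.02 on the TPM scale, where it was not called. In complex IV, 9 of 16 tested were higher, among them Cox7b at 0.54, Cox5a at 0.47 and Ndufa4, a complex IV subunit despite its name, at 0.45. Cox7a2l, a factor that joins complexes III and IV into supercomplexes, had -0.18 ± 0.09 (edgeR adjusted p = 0.0958) and was called lower under total count and TPM scaling.

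Complex V had 12 of 17 higher and held the 2 largest increases among the nuclear members. Atp5g1 and Atp5g3 encode the same mature ring subunit with different import sequences. Atp5g1 stood at 86.6, 93.7 and 126 CPM in wild type and 106, 156 and 206 CPM in knockout vehicle, a log2 fold change of 0.68 ± 0.11 (edgeR adjusted p = 0.000101). Atp5g3 stood at 212, 251 and 332 CPM in wild type and 271, 402 and 486 CPM in knockout vehicle, a log2 fold change of 0.63 ± 0.10 (edgeR adjusted p = 9.22e-05). Atp5g2, the third gene for that ring, had 0.07 ± 0.07 and was not called. The 3 genes therefore moved by unequal amounts. As TPM, Atp5g2 exceeded Atp5g1 in wild type (535 ± 39.2 against 393 ± 44.0, n = 8). In knockout vehicle its mean lay below that of Atp5g1 (494 ± 61.9 against 569.5 ± 97.4, n = 10), but within the spread. The order of the 2 genes was not tested. The alpha subunit Atp5a1 rose by 0.51 ± 0.08 and the beta subunit Atp5b by 0.30 ± 0.07 (edgeR adjusted p = 8.04e-05 and 0.0029).

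**Figure D2:**
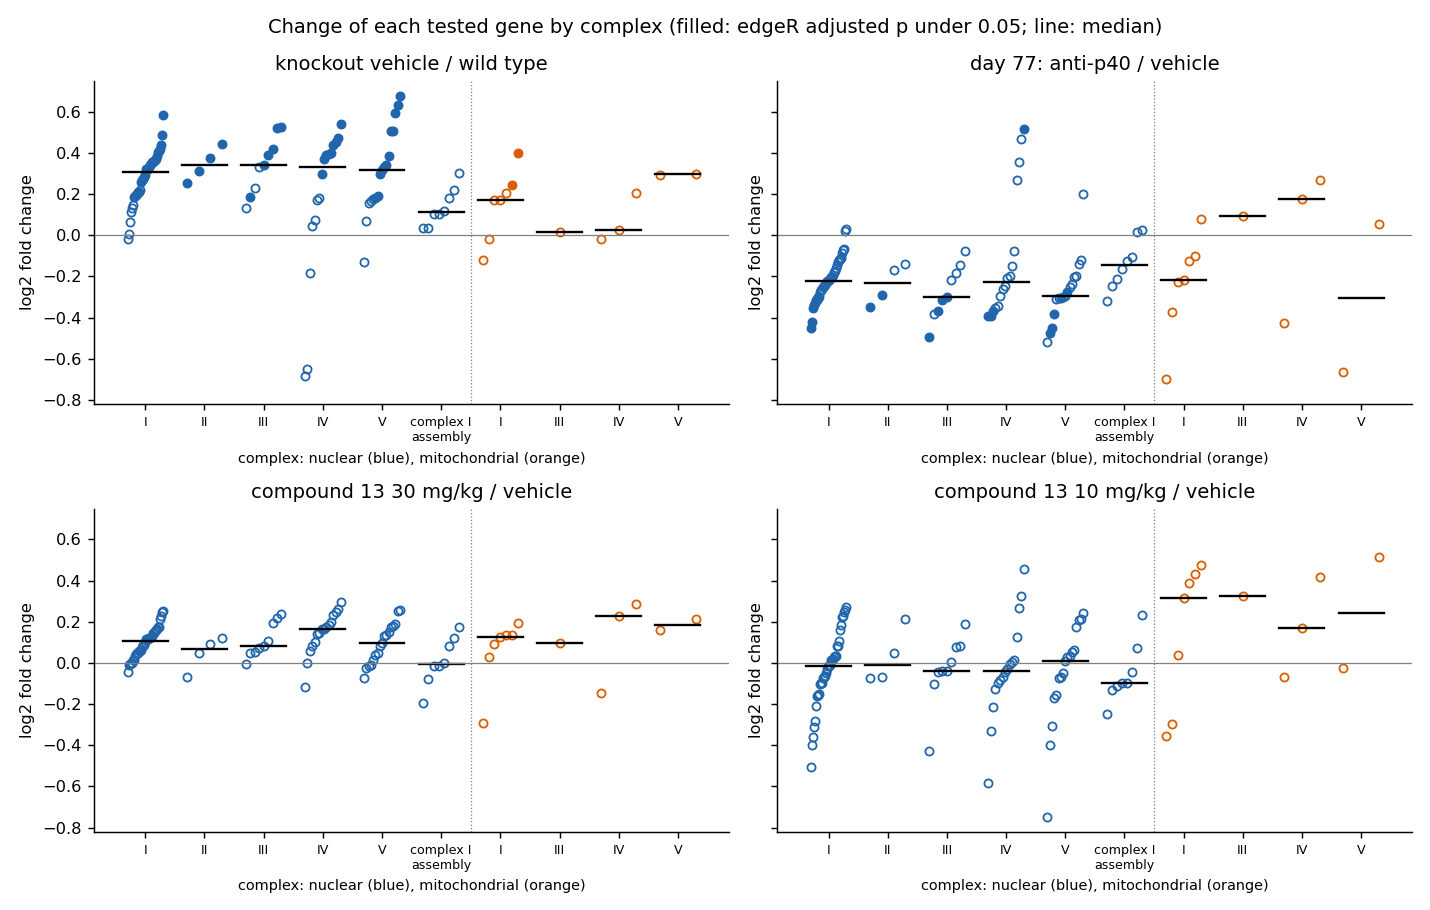
log2 fold change of each tested gene by complex in the 4 comparisons, nuclear genes in blue and mitochondrial genes in orange, filled where the edgeR adjusted p was under 0.05, with a line at each median. The knockout panel has 55 filled nuclear points, all above 0, and the anti-p40 panel has 20 below 0 and 1 above, with no filled point in either compound 13 panel.

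Few mitochondrial genes were called. Of 13 tested, 2 were called in either direction, where 49.4% of all genes were. Both were higher in knockout vehicle, mt-Nd6 at 0.40 ± 0.12 (edgeR adjusted p = 0.0122) and mt-Nd5 at 0.24 ± 0.08 (edgeR adjusted p = 0.017), and the median was 0.17. Those 2 complex I genes overlap by 14 bases on opposite strands, and whether reads were counted by strand was not given in the sources used here, so their reads cannot be told apart with certainty. mt-Nd6 is also known to lack a poly(A) tail, and the libraries were made by poly(A) enrichment. Under total count scaling and on the TPM scale neither was called, and mt-Nd4 was called lower. mt-Co1 stood at 17619, 20666 and 24711 CPM in wild type and 17423, 20371 and 29378 CPM in knockout vehicle, with ranges that overlapped almost wholly and a log2 fold change of 0.02 ± 0.11 (edgeR adjusted p = 0.872). For 1 subunit pair in each shared complex, the log2 ratio of nuclear to mitochondrial counts was tested in 4 comparisons. Exact two-sided permutation tests were used, adjusted over 16 tests. They speak of the pairs chosen and do not test the genomes as wholes. In the knockout none passed: the ratio of Cox4i1 to mt-Co1 differed by 0.15 (adjusted p = 0.443, exact permutation) and that of Ndufv1 to mt-Nd1 by 0.07 (adjusted p = 0.731, exact permutation). The result for complex IV hinged on the pair, since Cox5a to mt-Co3 differed by 0.49 (adjusted p = 0.00293, exact permutation). In complex III, Uqcrc1 to mt-Cytb differed by 0.18 (adjusted p = 0.381, exact permutation) and Cyc1 to mt-Cytb by 0.33 (adjusted p = 0.0557, exact permutation). Ndufs1 to mt-Nd5 differed by 0.17 (adjusted p = 0.327, exact permutation) and Atp5a1 to mt-Atp6 by 0.18 (adjusted p = 0.506, exact permutation).

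Other genes of mitochondrial metabolism were read from lists, as counts and medians, beside the 25.2% of all genes tested that were higher and the 24.1% that were lower. Of 19 citric acid cycle and pyruvate dehydrogenase genes, 9 rose and 0 fell in the knockout (median 0.17), including Mdh2, malate dehydrogenase, at 0.41 ± 0.09 (edgeR adjusted p = 0.000838). Of 20 electron carrier and ADP/ATP exchange genes, 6 were higher and 2 lower, with cytochrome c (Cycs) at 0.90 ± 0.16 (edgeR adjusted p = 0.000254). Of 80 mitochondrial ribosomal protein genes, 22 were higher and 3 lower (median 0.13), and of 82 cytosolic ones 8 and 2 (median 0.06). Of 10 regulators of mitochondrial biogenesis, 0 were higher and 3 lower: the coactivator Ppargc1a had -1.12 ± 0.22 (edgeR adjusted p = 0.000704), with Esrrg at -1.25 and Ppara at -0.61. Of 19 genes that maintain mitochondrial DNA and RNA, 2 were higher and 6 lower, among them the helicase Twnk at -0.52 ± 0.08 (edgeR adjusted p = 0.00014). Of 37 assembly factors outside the symbol rule, 8 were higher and 3 lower. The shares higher among the electron carrier genes, the mitochondrial ribosomal protein genes and these assembly factors lay near that of all genes. So did the shares lower among the biogenesis regulators and the genes that maintain mitochondrial DNA and RNA. Those shares near the background are no result about the lists. The lower counts of the electron carrier, mitochondrial ribosomal and assembly factor lists lay below the share of all genes. So did the higher counts of the biogenesis regulators and of the genes that maintain mitochondrial DNA and RNA. Both counts of the cytosolic ribosomal genes also lay below. No list was tested as a set.

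Cell type markers moved in the same comparison. Of 9 pan-epithelial markers, 7 were higher (median 0.33), their summed level being 13071 to 15694 CPM in wild type and 13067 to 25707 CPM in knockout vehicle. All 9 smooth muscle markers were lower (median -1.28), the sum being 4949 to 11965 CPM in wild type and 381 to 8472 CPM in knockout vehicle. Of 10 colonocyte and 8 goblet cell markers tested, 6 each were higher and 0 lower. Of 8 T cell and 8 macrophage markers, 7 each were higher. None of these lists held a marker with a median count of 0, and their part in the result was not tested. In bulk tissue, fewer cells of a type and less RNA per cell cannot be told apart.

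Anti-p40 went with lower nuclear members at day 77. Of 90 tested, 20 were lower and 1 higher (edgeR adjusted p under 0.05), where 8.32% of all 16470 genes were lower and 8.35% higher. The nuclear median was -0.23, against 0.01 over all genes, and 9 of 90 lay above 0. The lower genes were 6 of complex I, 2 of complex II, 4 of complex III, 3 of complex IV and 5 of complex V. This count was sensitive to single libraries and to the method: it was 6 without anti-p40 replicate 2 and 8 without vehicle replicate 2. DESeq2 called 38, limma on log2(TPM + 1) called 4, and edgeR with all 6 groups in 1 fit called 4. The shares of all genes under these alternatives are not given here, so the counts show only how far the number moved.

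Atp5g1 stood at 169, 174, 175, 195 and 201 CPM in the 5 vehicle libraries and at 117, 118, 139, 140.1 and 154 CPM with anti-p40. The groups did not overlap, and the log2 fold change was -0.45 ± 0.10 (edgeR adjusted p = 0.0121). Cyc1 stood at 301, 301, 303, 305 and 329 CPM with vehicle and at 219.9, 222, 245, 251 and 253 CPM with anti-p40. It too was separated completely, with a log2 fold change of -0.37 ± 0.08 (edgeR adjusted p = 0.01). Uqcrq stood at 218, 225, 234, 269 and 300.1 CPM with vehicle and at 135, 162, 172, 183 and 231 CPM with anti-p40. One treated library lay within the vehicle range, and the log2 fold change was -0.49 ± 0.14 (edgeR adjusted p = 0.0379). Atp5g3 fell by 0.48 ± 0.11 and Ndufb6 by 0.45 ± 0.11 on the log2 scale (edgeR adjusted p = 0.0139 and 0.021), and Atp5a1 fell by 0.38 ± 0.10 (edgeR adjusted p = 0.0239). Atp5k, a small subunit of complex V, had the lowest value at -0.52 ± 0.17 but was not called (edgeR adjusted p = 0.0585).

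The 1 member that rose was Cox7a1. It stood at 18.5, 18.6, 19.8, 20.7 and 21.3 CPM with vehicle and at 19.1, 26.7, 29.6, 30.5 and 35.4 CPM with anti-p40. Of the 5 treated libraries, 4 lay above every vehicle library, and the log2 fold change was 0.52 ± 0.14 (edgeR adjusted p = 0.0315). The call was lost with limma voom, with all 6 groups in 1 fit and without any 1 of 6 libraries (vehicle replicates 1, 2 and 4 and anti-p40 replicates 1, 2 and 5). Smooth muscle markers moved the same way, 7 of 9 being higher (median 1.15). Their summed level was 1549 to 4049 CPM with vehicle and 4089 to 10336 CPM with anti-p40. Of 11 enteric neuron and glia markers, 4 were higher and 0 lower (median 1.08). Of 5 striated muscle markers tested, 2 were higher and 0 lower (median 0.07). The summed striated muscle level was 10.4 to 23.4 CPM with vehicle and 16.8 to 43.4 CPM with anti-p40. The part of these lists in the Cox7a1 result was not tested. Pan-epithelial markers were called in 0 of 9 (median -0.12), where 8.35% of all genes tested were higher and 8.32% lower. Of 10 colonocyte markers tested, 3 were higher and 1 lower (median 0.50), and of 8 goblet cell markers 1 was higher and 0 lower (median 0.41). The summed colonocyte level was 3753 to 4748 CPM with vehicle and 4759 to 5956 CPM with anti-p40. The summed goblet cell level was 12422 to 20265 CPM with vehicle and 21646 to 40030.5 CPM with anti-p40, so the groups overlapped in neither sum. Of the immune lists, 6 of 8 T cell and 6 of 8 macrophage markers were lower. The part of these cell types in the nuclear members' values was not tested.

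No mitochondrial member was called with anti-p40 (0 of 13, also at an unadjusted p under 0.05), where 16.7% of all genes tested were called in either direction, and the median of the 13 was -0.12. mt-Co1 stood at 15080.0, 15294, 15460.4, 19473 and 25037 CPM with vehicle and at 17301, 17606, 18054, 22422 and 26682 CPM with anti-p40. The groups overlapped, with a log2 fold change of 0.18 ± 0.19 (edgeR adjusted p = 0.557). Neither were the ratios shown to differ: Cox4i1 to mt-Co1 differed by -0.34 (adjusted p = 0.381, exact permutation) and Ndufv1 to mt-Nd1 by 0.01 (adjusted p = 0.921, exact permutation), where 5 against 5 libraries can reach no raw p below 0.00794 (exact permutation). Among the lists, 3 of 19 citric acid cycle genes were lower and 0 higher, where 8.32% and 8.35% of all genes were. Of 20 electron carrier and ADP/ATP exchange genes 1 was higher and 2 lower (median -0.03). Of 10 biogenesis regulators 1 was higher and 0 lower (median 0.10). Both lists lay near the shares of all genes, and their counts are no result about them. Within these lists cytochrome c fell by 0.72 ± 0.17 on the log2 scale (edgeR adjusted p = 0.017), and Ppargc1a rose by 1.3 ± 0.36 (edgeR adjusted p = 0.0313).

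The knockout and anti-p40 comparisons share no library, so their members can be set side by side. All 20 nuclear members called lower with anti-p40 were among the 55 called higher in the knockout, which is 36.4% of the 55 and 100% of the 20. Over all genes tested in both, 1201 were shared, which is 29.2% of the 4119 higher in the knockout and 89.9% of the 1336 lower with anti-p40. The share for these genes thus lay near that of genes in general. Among the 20 were Ndufa10, Ndufb6, Ndufc1, Ndufs5 and Ndufs8 of complex I, Sdhc and Sdhd of complex II, and Cyc1, Uqcrb, Uqcrfs1 and Uqcrq of complex III. They also included Cox5a, Cox7b and Cox7c of complex IV and Atp5a1, Atp5g1, Atp5g3, Atp5mpl and Atp5o of complex V. In direction alone, 80 of 90 lay above 0 in the knockout and below 0 with anti-p40. The share of all genes with these signs was not counted, so the 80 cannot be called particular to these members.

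**Figure D3:**
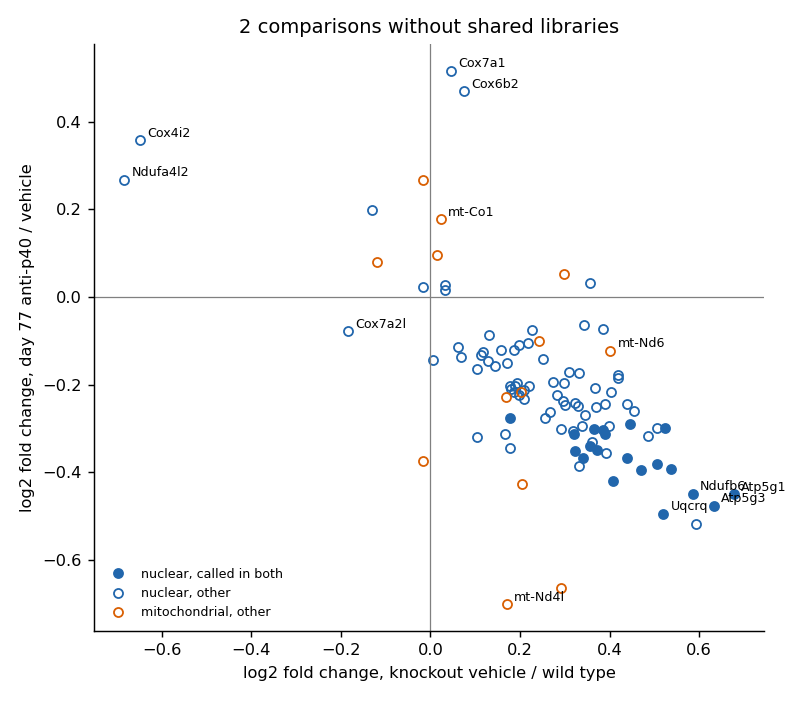
log2 fold change in knockout vehicle over wild type (x axis) against anti-p40 over vehicle at day 77 (y axis) for each tested gene, with filled points for the 20 nuclear genes called higher in the first and lower in the second. Most nuclear points (blue), 80 of 90, lie to the lower right, and Cox7a1 lies at the top. The share of all genes lying to the lower right was not counted.

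Compound 13 at 30 mg/kg left no member called. edgeR called 0 of 90 nuclear and 0 of 13 mitochondrial members, and 0% of 16948 genes in either direction, although 1004 genes had an unadjusted p under 0.05. Among members, 3 nuclear and 0 mitochondrial had such a p, and DESeq2 also called 0 members. The nuclear median was 0.10, with 74 of 90 above 0, and the mitochondrial median was 0.14. Atp5g1 stood at 109, 161 and 174 CPM, well within the vehicle range, and its log2 fold change was -0.08 ± 0.12 (edgeR adjusted p = 0.999). The smallest unadjusted p values belonged to Cox6c at 0.30 ± 0.14, Ndufa7 at 0.23 ± 0.11 and Ndufb4 at 0.25 ± 0.11 (edgeR adjusted p = 0.836, 0.836 and 0.835). None of the 4 ratios passed.

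No member was called at 10 mg/kg either, but 2 of the nuclear to mitochondrial pair ratios passed. edgeR called 0 of 90 nuclear and 0 of 13 mitochondrial members, where 0.0059% of 16948 genes were called in each direction and 0.0118% in all. The nuclear median was -0.03, with 39 of 90 above 0, and the mitochondrial median was 0.31, with 9 of 13 above 0. Unadjusted p values under 0.05 were held by 14 nuclear and 7 mitochondrial members, against 1865 of all genes, and DESeq2 called 1 mitochondrial member, mt-Nd2. mt-Nd2, a membrane subunit of complex I, stood at 1140.0, 1256 and 1744 CPM in knockout vehicle, 1186, 1459 and 1976 CPM at 30 mg/kg and 1262, 1805 and 2394 CPM at 10 mg/kg. The highest libraries were those at 10 mg/kg, but the groups overlapped, and the log2 fold change against vehicle was 0.48 ± 0.12 (edgeR adjusted p = 0.183). mt-Nd1 stood at 2957, 3506 and 5165 CPM in vehicle and 3289, 4585 and 6457 CPM at 10 mg/kg, a log2 fold change of 0.39 ± 0.12 (edgeR adjusted p = 0.281). Of the 7 mitochondrial genes of complex I, 5 lay above 0, and 4 had an unadjusted p under 0.05 (median 0.31). mt-Nd4 had 0.43 ± 0.12 and mt-Nd3 had 0.31 ± 0.20, while mt-Nd5 had 0.04 ± 0.11, mt-Nd6 had -0.30 ± 0.14 and mt-Nd4l had -0.35 ± 0.23.

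Of the nuclear to mitochondrial ratios at 10 mg/kg, 2 of 4 passed. The log2 ratio of Ndufv1 to mt-Nd1 was -5.03 ± 0.27 (SD, n = 7) against -4.51 ± 0.25 (n = 10) in vehicle, a difference of -0.53 (adjusted p = 0.0206, exact permutation). All 7 libraries lay below the vehicle mean, but the groups overlapped (-5.50 to -4.60 at 10 mg/kg against -5.07 to -4.12 in vehicle). The ratio of Cox4i1 to mt-Co1 was -5.46 ± 0.25 (n = 7) against -5.02 ± 0.24 (n = 10), a difference of -0.44 (adjusted p = 0.0218, exact permutation). Again all 7 lay below the vehicle mean, and the groups overlapped (-5.87 to -5.13 against -5.54 to -4.69). Uqcrc1 to mt-Cytb differed by -0.23 (adjusted p = 0.381, exact permutation) and Atp5b to mt-Atp6 by 0.13 (adjusted p = 0.688, exact permutation). The finding turned on the pair chosen: Ndufs1 to mt-Nd5 differed by 0.16 in the opposite direction (adjusted p = 0.436, exact permutation) and Cox5a to mt-Co3 by -0.24 (adjusted p = 0.381, exact permutation). Without replicate 1 or replicate 7 of the 10 mg/kg group the Cox4i1 ratio missed the threshold (adjusted p = 0.0519 and 0.0599, exact permutation). Both doses are compared with the same vehicle libraries, and the doses were not tested against each other. Smooth muscle markers had a median of -0.92 at 10 mg/kg and 0.31 at 30 mg/kg, with 0 of 9 called at either dose, and their part in the ratios was not tested.

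**Figure D4:**
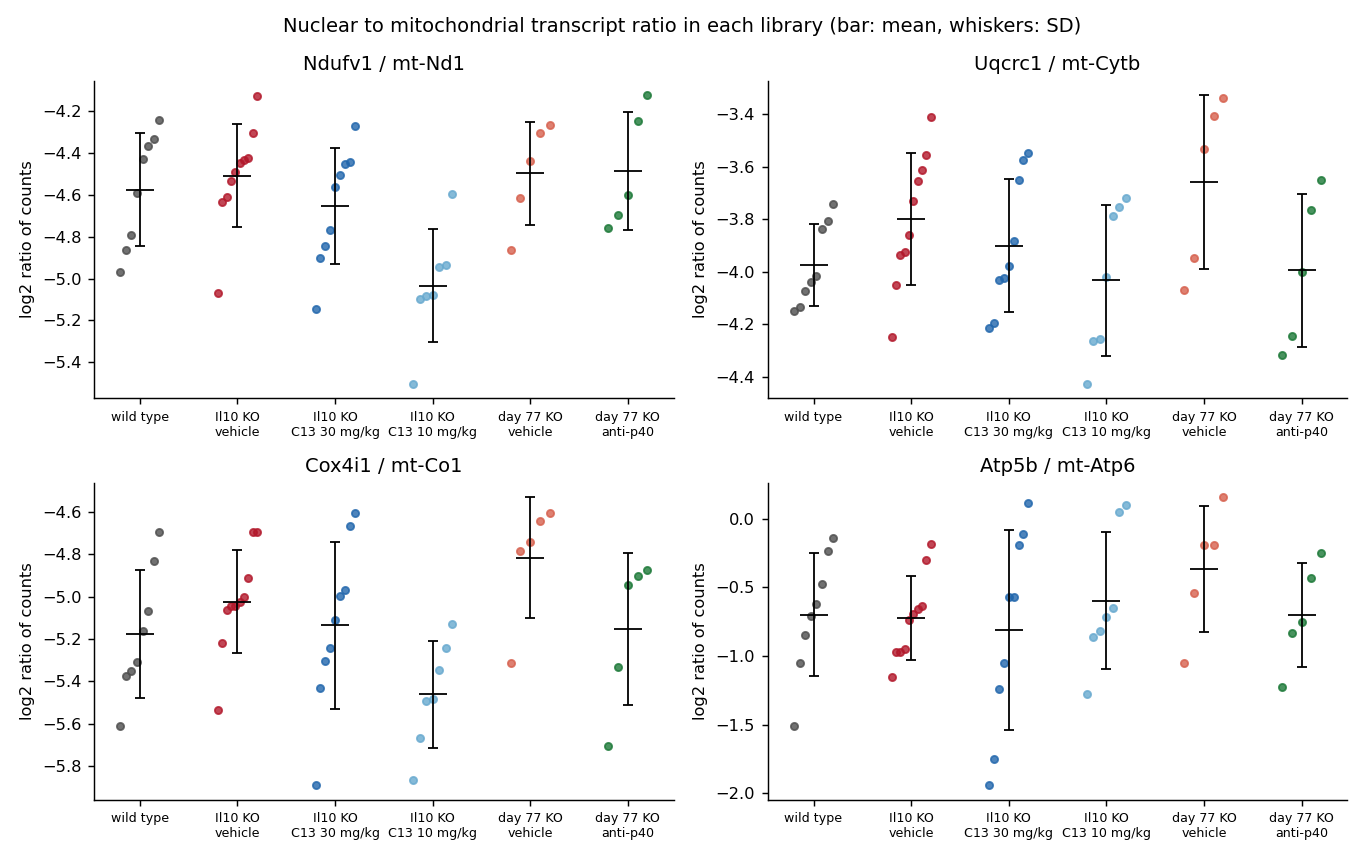
log2 ratio of nuclear to mitochondrial counts for 1 subunit pair in each shared complex, in every library of the 6 groups, with bars for means and whiskers for SD. All 7 libraries at 10 mg/kg lie below the knockout vehicle mean for Ndufv1 to mt-Nd1 and for Cox4i1 to mt-Co1. The ranges of the 10 mg/kg and vehicle libraries overlap for both pairs.

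Whether the anti-p40 effect differed from the effect of compound 13 at 30 mg/kg was tested as a difference of 2 effects over all 6 groups. edgeR called 0 of 92 nuclear and 0 of 13 mitochondrial members, where 0.444% of 18021 genes were called higher and 1.2% lower. The nuclear median of the difference was -0.32, against 0.04 over all genes. An unadjusted p under 0.05 was held by 36 nuclear and 2 mitochondrial members, and by 2787 of all 18021 genes. The mitochondrial count lay near that share and is no result about those members. edgeR with DESeq2 size factors and limma voom each called 1 nuclear member.

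Complex IV has alternative subunits that differ between tissues, and the colon used mainly the ubiquitous forms. In knockout vehicle Cox4i1 stood at 1745 TPM ± 196 (SD, n = 10) and Cox4i2, the form known from lung and hypoxia, at 1.79 TPM ± 1.13. Cox6a2 and Cox8b, the striated muscle forms, stood at 0.497 TPM ± 0.388 and 2.90 TPM ± 2.18, against 2453 TPM for Cox6a1 and 2339 TPM for Cox8a. Cox6b2, the testis form, stood at 6.86 TPM ± 5.03 against 1042 TPM ± 114 for Cox6b1, and Ndufa4l2, a hypoxia-responsive relative of Ndufa4, at 1.16 TPM ± 1.36 against 438 TPM ± 82.3. As TPM, which is scaled for length, Cox7a1 was the exception among the muscle forms, at 308 TPM ± 89.6 against 644 TPM ± 74.7 for Cox7a2. Cox7b2 and Cox8c, also known from testis, were listed at 0 TPM in every knockout vehicle library. In the knockout, Cox6a1, Cox6b1 and Cox7a2 rose by 0.39, 0.40 and 0.37, whereas Cox4i1 had 0.17 ± 0.08 (edgeR adjusted p = 0.0847) and Cox8a 0.18 ± 0.09 (edgeR adjusted p = 0.0985). Cox4i2 and Ndufa4l2 had the lowest values of all tested members, -0.65 ± 0.39 and -0.68 ± 0.49, and neither was called. AA467197, a relative of Ndufa4 outside the symbol rule that is known from inflamed tissue, rose by 0.54 ± 0.13 in the knockout (edgeR adjusted p = 0.00221) and had -0.27 ± 0.13 with anti-p40 (edgeR adjusted p = 0.174).

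**Figure D5:**
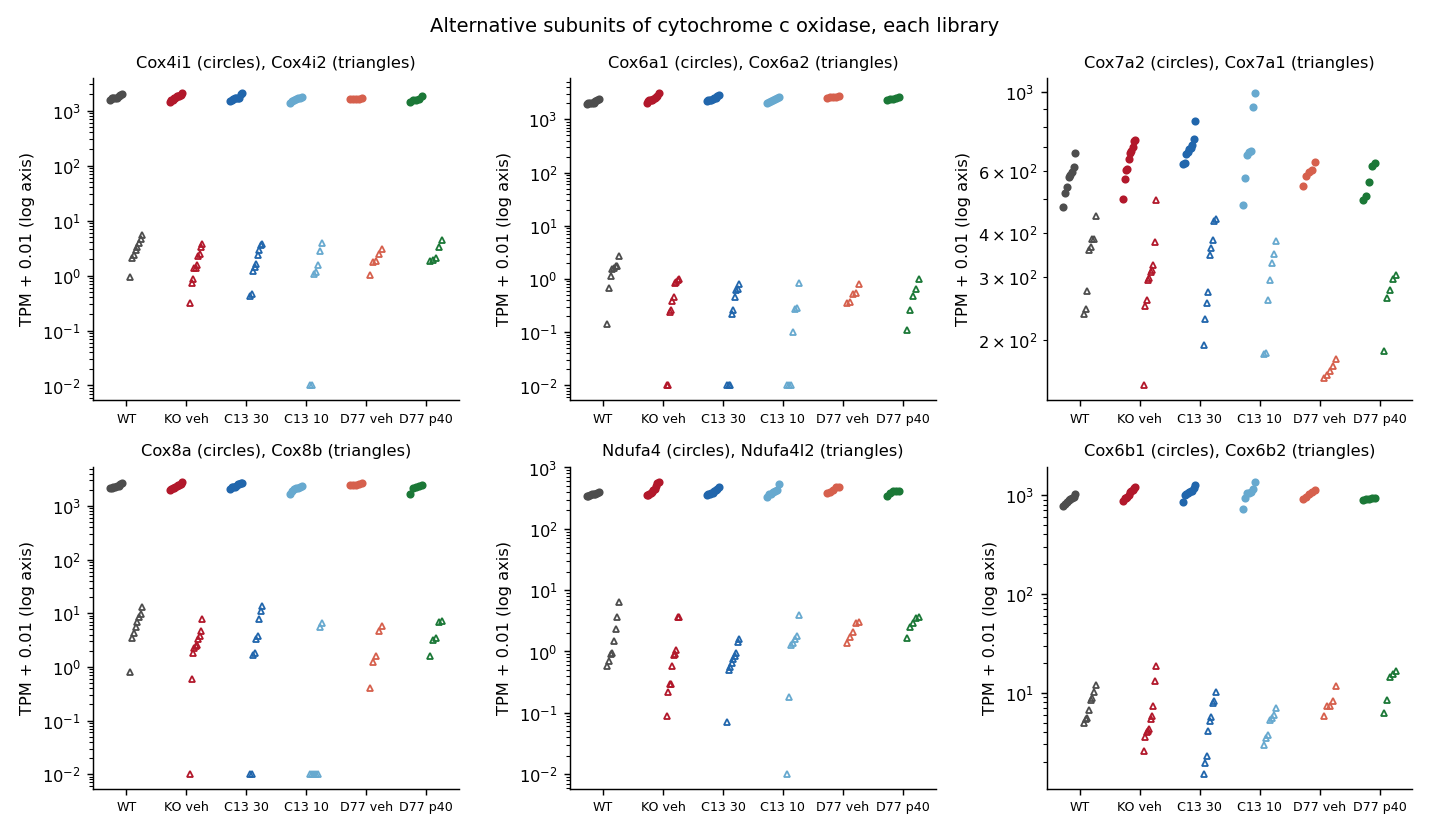
TPM + 0.01 on a log axis for 6 pairs of alternative complex IV subunits in each library of the 6 groups, circles for the ubiquitous and triangles for the restricted form. In 5 pairs the restricted form lies far below the ubiquitous one, whereas Cox7a1 reaches the same range as Cox7a2.

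Levels of some mitochondrial genes differed between the cohorts. mt-Nd4l stood at 18.8, 32.1 and 51.4 CPM in knockout vehicle of the first cohort and at 211, 241, 302, 381 and 403 CPM in day 77 vehicle, with no overlap. As TPM it stood at 1323 ± 253 (n = 10) against 6371 ± 1676 (n = 5), while its neighbour mt-Nd4, which it overlaps by 7 bases, stood at 4281 ± 421 against 3387 ± 559. mt-Co2 stood at 4639.98 TPM ± 1235 in the first and 10144 TPM ± 3388 in the second, and mt-Nd3 at 9587 TPM ± 1925 against 3745 TPM ± 714. The cohorts were deposited in separate tables, so cohort, time point and processing cannot be told apart, and no test was made between them.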

How the data were processed

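Poly(A)-enriched RNA from the distal colon was sequenced in 45 libraries. The authors deposited estimated counts per gene, not normalized, and TPM (scaled for length and depth) per the labels and from the values. Per the submitters' processing notes, the tools named (with no roles) are RSEM 1.3.3, STAR 2.7.8a, DESeq2 1.30.1 and cutadapt 3.7, and the build is mm10; strandedness was not given in the sources used here. Symbols came from GENCODE M21 (GRCm38), which matched 50376 of 50600 identifiers.

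Estimated counts were rounded and tested with edgeR 4.0.16 under R 4.3.3 (quasi-likelihood, robust, TMM scaling, default expression filter), adjusting p-values over all genes tested. SEs were taken from the log2 fold change and its F statistic. Knockout against wild type and anti-p40 against vehicle each had a fit of their own groups, and both compound 13 doses shared 1 fit with shared vehicle libraries. CPM levels were scaled over all libraries. DESeq2 1.42.0, limma 3.58.1 (voom, and log2(TPM + 1) or log2(TPM + 0.1) with a mean TPM of at least 1), other scalings and filters and leaving out each library were alternatives. Ratio tests were exact permutation tests over libraries (scipy 1.17.1). In tests on simulated data with the knockout comparison's 16435 genes, 46% of genes changed 1.5-fold and 87% of those changed 3-fold were recovered. For the anti-p40 comparison (16470 genes) these were 25% and 76%. Of the genes called in these simulations, 5% in the knockout and 9.01% in the anti-p40 comparison were genes left unchanged.

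The members and gene lists were chosen with earlier results of these data known. Named genes were up to 8 called members per direction with the largest change, the 3 smallest p values where none was called, fixed core subunits and alternative subunits, and at most 3 genes of any other list. Other members named beside them, such as those called in both comparisons, were chosen after their values were seen. No library pair of a group agreed within sampling noise (lowest chi-square per degree of freedom 8.27). One library whose title and treatment field disagree on dose entered no comparison. The authors' tables of fold changes were not used here.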

Additional observations from a re-analysis of the deposited data

Results flagged for a closer look

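Of 138 groups of 4 to 10 libraries tested for a library far from the others, 6 held one, and chance flags about 1 in 20. In day 77 vehicle, replicate 5 had 6.11% of its counts on the mitochondrial members, where the other 4 had 3.73% to 4.35%. The same library had a log2 ratio of Cox4i1 to mt-Co1 of -5.31, where the others had -4.78 to -4.60. Without it, 12 nuclear members were called lower with anti-p40 in place of 20. In knockout vehicle, replicate 9 had 5165 CPM of mt-Nd1 against 2957 to 4136 CPM in the others. In day 77 vehicle, replicate 2 had 329 CPM of Cyc1 against 300.9 to 305 CPM. At 30 mg/kg, replicate 9 had 1976 CPM of mt-Nd2 against 1186 to 1518 CPM, and replicate 6 had 1649.6 CPM of mt-Nd5 against 1969 to 2264 CPM.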

How the results depend on the processing

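The 55 nuclear members higher in the knockout became 31 (1 lower) under total count scaling, 21 (3 lower) with limma on log2(TPM + 1) or log2(TPM + 0.1), and 16 (2 lower) without the filter on low TPM. Over all genes, 16.8% were higher and 34.4% lower under total count scaling. With log2(TPM + 1) these shares were 14.1% and 38.9%, and without the filter on low TPM 7.6% and 22.2%. Under each of these 4 settings 1 mitochondrial member was called, mt-Nd4 and lower. Leaving out 1 library gave 48 to 67 higher and 0 to 1 lower. Uqcrc1 turned to -0.0152 under all 3 TPM settings, where it was not called. The 20 nuclear members lower with anti-p40 became 13 under total count scaling, 38 with DESeq2, 4 with all 6 groups in 1 fit, 4 with limma on log2(TPM + 1) or log2(TPM + 0.1), and 0 without the filter on low TPM. For anti-p40 the shares of all genes under these settings are not given here. Leaving out 1 library gave 6 to 18 lower and 0 to 1 higher, and limma voom and the fit of all 6 groups gave 0 higher. DESeq2 called 1 mitochondrial member at 10 mg/kg. The difference between the anti-p40 and 30 mg/kg effects gained 1 nuclear member with DESeq2 size factors and 1 with limma voom. The cause of these differences was not tested.

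With other pairs, the knockout ratio in complex IV became 0.49 (Cox5a to mt-Co3) and that in complex V 0.18 (Atp5a1 to mt-Atp6). With Ndufs1 to mt-Nd5 the complex I ratio became 0.0192 at 30 mg/kg, 0.16 at 10 mg/kg (reversed) and -0.0922 with anti-p40, and with Cox5a to mt-Co3 the complex IV ratio at 10 mg/kg became -0.24. Leaving out 1 library moved Atp5b to mt-Atp6 between -0.14 and 0.0522 in the knockout and between -0.20 and 0.0539 at 30 mg/kg. It moved Ndufv1 to mt-Nd1 between -0.0796 and 0.0797 with anti-p40, and Cox4i1 to mt-Co1 at 10 mg/kg between -0.50 and -0.37 (adjusted p = 0.0028 to 0.0599, exact permutation). No paired analysis was possible because the replicate numbers were given in accession order and link no libraries across groups. Libraries were deep for these abundant genes, while for Cox4i2 and Ndufa4l2, under about 2 CPM, changes of the size seen were within the error.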

Other observations

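The library whose labels disagree on its dose had 1.65% of its counts on the nuclear members and 4.68% on the mitochondrial members, and its log2 ratio of Cox4i1 to mt-Co1 was -5.32.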
